A study of Mus musculus with 2 samples.

Results

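The cells described here are 360 mouse embryonic stem cells with the highest share of transcripts from genes of S-phase entry, out of 8435 cells in the series. They come from the library labelled MERVL-GFP negative, which held 3832 cells. Of these, 3599 were eligible, with at least 10000 UMIs (transcript molecules as counted by barcode) and under 0.03% of UMIs from Gata6, Sox17, Pdgfra and Dab2, genes of primitive endoderm. The endoderm limit left out 225 cells and the UMI minimum 8. Eligible cells were scored by the share of their UMIs from 8 genes, Ccne1, Ccne2, Cdc6, Mcm5, Mcm6, Slbp, Gins2 and Uhrf1. The 10% with the highest score are the S-phase-entry cells, and they were compared with the 1800 cells in the lower 50% of the score across all other genes. The remaining 1439 cells form the middle 40%.

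The line is a mouse embryonic stem cell (mESC) line, a pluripotent line that divides rapidly in culture. All cells of both libraries carry GFP under the promoter of the endogenous retrovirus MERVL, which reports a state like that of the 2-cell embryo (2C-like), and the nuclear fluorescent tag H2B-mIFP for following cells. One group of cells is labelled MERVL-GFP positive (4603 cells) and the other MERVL-GFP negative, with 1 library each and no other treatment, time or genotype in the labels. How the cells were separated is not stated, and the batch label is the library itself, so library, batch and reporter state cannot be told apart.

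Cells enter S phase when cyclin E, together with its kinase, and the E2F transcription factors switch on the genes for DNA replication. Before that point the origin recognition complex, Cdc6 and Cdt1 load the MCM helicase onto DNA, and at S-phase entry CDC45 and the GINS complex turn the helicase on. Embryonic stem cells have a short G1 phase and spend much of their cycle in S phase, so transcripts of this step are found at some level in most of them.

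Because the score is a continuous quantity, the S-phase-entry cells are a range of it and not a separate cell type. Their scores ran from 0.123% to 0.210% of UMIs, with a median of 0.136%, and the bottom 50% had a median of 0.0606%. The last 3 members had 0.1231%, 0.1231% and 0.1232%, and the first 3 cells outside had 0.1231%, 0.123% and 0.1229%. Within 10% of the threshold lay 175 of the 360 members and 235 other cells. The last member was chosen by 34 score UMIs, whose exact Poisson interval alone allows a score of 0.0853% to 0.172%. At an even depth of 10000 UMIs per cell, reached by thinning, the score UMIs per cell had a mean of 8.25. Their variance was 1.83 times the mean, so cells differed more than counting gives. At that depth counting error made up a large part of the spread. The cells were chosen at full depth, where that part was not measured.

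Depth differed little between the groups. The median cell had 38130.5 UMIs and 5790 genes among the S-phase-entry cells, and 40254 UMIs and 5938 genes in the bottom 50%. No doublet caller was applied, and cells above 2 times the library's median UMIs made up 0.278% of the S-phase-entry cells (exact binomial interval 0.00703 to 1.54) and 2.39% of the bottom 50% (1.73 to 3.20). The libraries share 3 barcodes, of which 1 belongs to an S-phase-entry cell. With 1 library there is no replicate and no test, and all intervals given are 95% intervals of counting error.

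**Figure D1:**
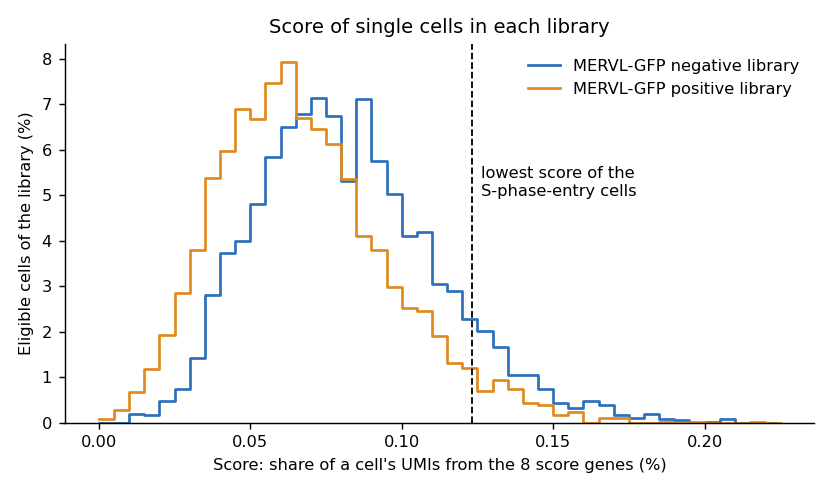
The horizontal axis is the score, the percent of a cell's UMIs from the 8 score genes, and the vertical axis is the percent of the eligible cells of each library in bins of equal width. The dashed line is the lowest score among the 360 S-phase-entry cells, 0.123%. Neither library has a separate peak above the line, and the positive library lies further to the left.

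The 8 score genes chose the cells, so their levels are given as a description. Cdc6, which loads the MCM helicase at origins, was at 80.8 CPM (UMIs per 1000000 summed UMIs of the group, Poisson interval 76.1 to 85.7) in the S-phase-entry cells, 46.7 CPM in the middle 40% and 22.5 CPM (21.4 to 23.6) in the bottom 50%. Ccne1, which encodes cyclin E1, was at 289 CPM against 97.2 CPM in the bottom 50%. Ccne2, the gene for cyclin E2, was at 15.9 CPM against 4.50 CPM. The other members were less far apart in ratio, from 1.79 (interval 1.70 to 1.88) for the helicase subunit Mcm5 to 2.53 (2.44 to 2.63) for Slbp, the protein that binds the stem-loop of histone mRNAs. Mcm6 had a ratio of 2.09, the GINS subunit Gins2 of 2.07, and Uhrf1, which guides maintenance methylation to new DNA, of 2.43.

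In single cells the groups overlapped for each score gene. Ccne1 had a lowest value of 0.292, a median of 2.71 and a highest value of 9.49 UMIs per 10000 in the S-phase-entry cells, and 0, 0.870 and 4.47 in the bottom 50%. Mcm6 had 0, 2.74 and 6.50 in the former and 0, 1.30 and 4.21 in the latter. For Ccne1, 347 of 360 S-phase-entry cells lay above the bottom median, and for Mcm6 341 did, so the groups were shifted against each other with common ground between the lowest members and the highest of the rest. Ccne2 was sparse, with a median of 0 in both groups and a highest value of 1.26 and 1.13.

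The score was also split into 2 sets of 4 genes, and each set was used to choose cells on which the other set was read. Cells in the top 10% by Ccne1, Ccne2, Cdc6 and Mcm6, the marker genes of this stage, had 1.76 times the Slbp level of the bottom 50% (interval 1.69 to 1.83), 1.75 times the Uhrf1 level (1.66 to 1.84), 1.42 times the Gins2 level (1.34 to 1.51) and 1.35 times the Mcm5 level (1.28 to 1.42). Cells chosen by Mcm5, Slbp, Gins2 and Uhrf1 had 2.19 times the Cdc6 level (2.02 to 2.37), 2.07 times the Ccne2 level (1.72 to 2.49), 1.81 times the Ccne1 level (1.73 to 1.89) and 1.56 times the Mcm6 level (1.504 to 1.63). All 8 genes were thus higher in cells that they had not chosen, at smaller ratios than in cells that they had. The membership was less stable: the 2 choices shared 108 of 360 cells, or 30%, and each shared 230 or 226 with the choice by all 8 genes.

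Pluripotency transcripts were present in both groups, and a chosen set of markers of each other cell type was low, though some further genes of their lists were not. Pou5f1, the central pluripotency factor, was at 385 CPM against 388 CPM, Zfp42 at 1291 against 1297 CPM and Nanog at 228 against 202 CPM. The log2 ratios of the 18 pluripotency genes past the filter on low values ran from -0.34 for Tdgf1 to 0.24 for Tfcp2l1, and 0 reached the size rule for calling genes (a ratio of at least 1.5), by which 0.759% of all genes past the filter were called higher and 1.24% lower. Of the defining markers of the 2C-like state (7), 4 had 0 UMIs in the S-phase-entry cells (Zscan4a, Zscan4f, Zfp352 and Tcstv3). These 7 markers summed to 0.646 CPM, against 0.664 CPM in the bottom 50%. The full list of 24 2C-like genes, of which 0 passed the filter, took 0.0001436% of UMIs against 0.0003305%. Primitive endoderm markers, limited by the rule, summed to 8.91 against 10.4 CPM with none of 7 at 0. The 5 trophoblast markers summed to 2.37 against 3.42 CPM with Cdx2 and Elf5 at 0. The 6 fibroblast markers summed to 1.08 against 1.05 CPM with Col3a1, Dcn, Lum and Postn at 0. The full lists took more, 0.01337% against 0.01457% of UMIs for primitive endoderm (16 genes), 0.006377% against 0.007137% for trophoblast (9) and 0.04036% against 0.03775% for fibroblast (10). They hold Sparc at 65.9 against 76.5 CPM, Tfap2c at 37.5 against 44.8, Vim at 213 against 199 and Fn1 at 187 against 175 CPM. In these lists 0 genes were called.

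Across the other genes, the S-phase-entry cells had more transcripts for DNA replication, nucleotide supply and chromatin assembly, and fewer for many genes of G2 and mitosis. Some regulators of G1/S were higher, with a list median whose interval includes that of all genes. Some hypoxia-response genes and Lefty1 were lower too, though the median of the 7 hypoxia genes had an interval that includes 0. The largest differences were about 3-fold in either direction, from H2ac1 (ratio 2.93) to Fam83d (ratio 0.296). A gene was called when its ratio of CPM + 1 reached 1.5 with at least 10 CPM in either group and 50 UMIs over both. Of 7243 genes past that filter, 55 were called higher (0.759%) and 90 lower (1.24%). Of the 55 higher genes, 22 (40%) were in the 6 lists for replication, nucleotides, chromatin assembly, G1/S control and repair, which hold 133 (1.84%) of all genes past the filter, and 30 were in no list. Of the 90 lower genes 19 (21.1%) were in the list for G2 and mitosis, which holds 56 (0.773%) of all genes, 1 was in the 6 lists, and 59 were in no list. The lists were chosen with results of these data known, so these shares describe the cells and add no independent evidence.

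Under TMM scaling the split was 40 higher and 108 lower, and with CPM taken outside ribosomal protein and mitochondrial genes 43 and 157. The counts also depend on where the score is divided: against all other eligible cells 16 genes were higher and 38 lower, and for the top 5% of cells 92 and 150. When cells were ranked after thinning to 10000 UMIs, 49 were higher, of which 23 were among the 55, and 141 lower, of which 56 were among the 90.

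**Figure D2:**
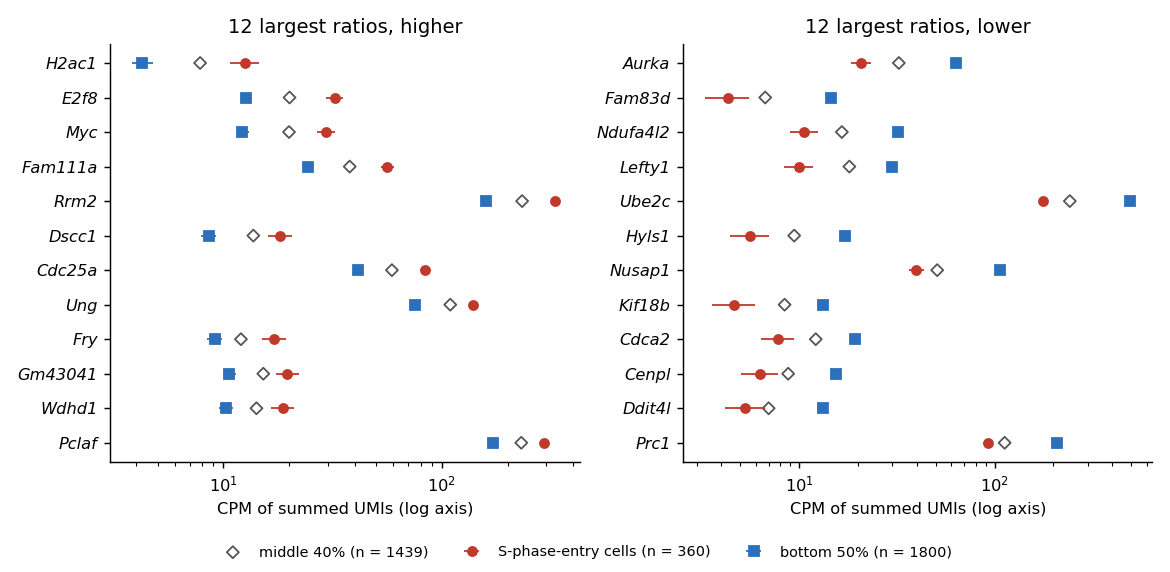
Each row is 1 gene, and the horizontal log axis is its level in CPM of summed UMIs. Circles are the 360 S-phase-entry cells, open diamonds the middle 40%, squares the bottom 50%, and bars are 95% Poisson intervals where wider than the symbol. For each of the 24 genes the middle 40% lie between the other groups.

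Among regulators of the G1/S transition, 7 of 28 genes past the filter were called higher and 0 lower, with a median log2 ratio of 0.21 (order-statistic interval 0.03 to 0.43) against 0.05 over all genes. E2f8, an E2F family member that represses E2F target genes, was at 32.3 CPM in the S-phase-entry cells and 12.7 CPM in the bottom 50% (ratio 2.55, 2.27 to 2.86). Myc, the growth-promoting transcription factor, was at 29.6 against 12.2 CPM (ratio 2.42, 2.15 to 2.72). Both transcripts were sparse in single cells. E2f8 ranged from 0 through a median of 0.257 to 1.90 UMIs per 10000 in the S-phase-entry cells and from 0 through 0 to 1.54 in the bottom 50%, where Myc had a higher maximum (4.81) than in the S-phase-entry cells (2.48). Cdc25a, the phosphatase that activates cyclin-dependent kinases at S-phase entry, was at 84.0 against 41.5 CPM.

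Of the D-type cyclins and their kinases on the list that passed the filter, Ccnd1 at 68.2 against 39.3 CPM and Cdk6 at 21.4 against 13.7 CPM were called, while Ccnd3 at 193 against 159 CPM was not. Skp2, the ubiquitin ligase subunit that directs the breakdown of the kinase inhibitor p27, was at 34.4 against 21.7 CPM. The gene for p27 itself, Cdkn1b, was at 18.2 against 24.4 CPM, Cdkn1a (p21) at 41.3 against 56.1 CPM and Cdkn2d (p19) at 17.7 against 22.7 CPM. These inhibitors had log2 ratios of -0.40, -0.43 and -0.34, short of the size rule, and Cdkn2a was nearly level at 64.9 against 66.8 CPM. Cdk2, the partner of cyclin E, was at 31.2 against 22.9 CPM (log2 ratio 0.43), while Cdk4 had 395 against 386 CPM.

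The inhibitor gene Cdkn1c (p57) was called higher, with 78.2 against 48.8 CPM (ratio 1.601, 1.495 to 1.714). Its UMIs per 10000 ranged from 0 through a median of 0.263 to 33.9 in the S-phase-entry cells, and 10 of the 360 cells held 40.9% of its UMIs there. Without the same share of cells with most of its UMIs in each group (10 and 50 cells, 2.78%) it was at 47.8 against 37.3 CPM (ratio 1.28, 1.17 to 1.40), which ends the call.

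For origin licensing and firing, 4 of 23 genes past the filter were called higher and 0 lower, with a median log2 ratio of 0.35 (0.16 to 0.54). Wdhd1, which ties the polymerase to the helicase, was at 18.7 against 10.3 CPM (ratio 1.81, 1.57 to 2.09). Mcm10, needed to start unwinding, was at 83.2 against 48.7 CPM (1.71, 1.596 to 1.82). Mcm4, a helicase subunit, was at 264 against 163 CPM, and the licensing factor Cdt1 at 89.7 against 59.1 CPM (ratio 1.52, 1.42 to 1.62). Against bottom cells low in mitosis transcripts the calls of Mcm4 (log2 ratio 0.566) and Cdt1 (0.564) ended, while those of Wdhd1 (0.679) and Mcm10 (0.677) stayed. Negative log2 ratios, none of them called, were those of Dbf4, the activator of the kinase that fires origins, at 165 against 188 CPM (-0.19), Orc5 (-0.08), Orc3 and Ticrr (both -0.04). The helicase subunits outside the score thus lay together, with Mcm2 at a log2 ratio of 0.54, Mcm3 at 0.57 and Mcm7 at 0.43 beside the called Mcm4, whereas the origin recognition complex ranged from 0.58 for Orc6 to the value of Orc5.

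Replication fork genes had positive log2 ratios under CPM scaling (28 of 28 past the filter, median 0.22, 0.14 to 0.39), beside 4264 of 7243 over all genes, and 2 were called. Dscc1, part of the complex that loads the sliding clamp, was at 18.2 against 8.57 CPM (ratio 2.12, 1.83 to 2.45), and Clspn, an adaptor of the replication checkpoint, at 68.1 against 43.2 CPM. Pcna, the sliding clamp, stayed under the size rule at 355 against 238 CPM (log2 ratio 0.57). In single cells Pcna had a lowest value of 0.785, a median of 3.53 and a highest value of 8.51 UMIs per 10000 among the S-phase-entry cells, and 0, 2.25 and 9.08 in the bottom 50%, so the ranges overlapped, and 311 of 360 S-phase-entry cells lay above the bottom median. At the low end were Rfc5, Pold2 and Rpa3, each at a log2 ratio of 0.04, whose sign turned under at least 1 other scaling.

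Nucleotide supply was higher as well, with 3 of 16 genes called, 16 of 16 positive and a median log2 ratio of 0.31 (0.14 to 0.57). Rrm2, the regulated subunit of the enzyme that makes deoxyribonucleotides, was at 331 CPM (322 to 341) in the S-phase-entry cells, 233 CPM in the middle 40% and 159 CPM in the bottom 50%. Its values per cell were 0.208, 3.26 and 7.89 UMIs per 10000 at the lowest, median and highest S-phase-entry cell, and 0, 1.41 and 7.02 in the bottom 50%. These ranges overlapped too, and 338 of 360 S-phase-entry cells lay above the bottom median. Tk1, thymidine kinase, was at 54.0 against 32.3 CPM. Thymidylate synthase itself, Tyms, was nearly level at 124 against 114 CPM.

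Chromatin assembly at replicated DNA had 4 of 13 genes called higher, 13 of 13 positive and a median log2 ratio of 0.33 (0.19 to 0.68). Chaf1a and Chaf1b, the large subunits of the assembly factor CAF-1, were at 76.6 against 47.4 and 57.1 against 35.2 CPM, with the same log2 ratio of 0.68. Atad2 was at 199 against 124 CPM and Casp8ap2, needed for histone gene expression, at 165 against 106 CPM. Against bottom cells low in mitosis transcripts the calls of Chaf1b (log2 ratio 0.458) and Casp8ap2 (0.579) ended, while those of Chaf1a (0.641) and Atad2 (0.619) stayed. Dnmt1, which works with the score gene Uhrf1, had 139 against 133 CPM.

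DNA repair and checkpoint genes had a median log2 ratio of 0.28 (0.12 to 0.45), with 2 of 25 called higher and 1 lower. Ung, which removes uracil from new DNA, was at 139 against 75.4 CPM (ratio 1.85, 1.75 to 1.95), and Dtl, part of the ligase that destroys Cdt1 in S phase, at 147 against 89.6 CPM. The lower one was H2ax, the histone variant phosphorylated at breaks, with 309 against 477 CPM, a call that ends against bottom cells low in mitosis transcripts (309 against 374 CPM).

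Histone genes did not move as 1 group. Of 20 replication-dependent histone genes past the filter (65 listed), 2 were called higher, H2ac1 at 12.5 against 4.26 CPM (ratio 2.93, 2.43 to 3.54) and H2bc4 at 21.8 against 12.9 CPM. The list's median log2 ratio was 0.11 (0.03 to 0.26), and it turned to -0.15 among cells within the interquartile range of UMIs. Of the H2ac1 UMIs in the S-phase-entry cells, 29.3% came from 10 cells. Without the same share of highest cells in each group (10 and 50 cells) it was at 9.105 against 2.61 CPM (ratio 3.49, 2.76 to 4.4). Both levels are under the 10 CPM of the filter, which ends the call. Near-identical copies share reads in this family, so values of single histone genes are uncertain. Among replication-independent histones, the linker histone H1f0 was lower at 73.7 against 121 CPM.

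Outside these lists the higher genes included further replication factors and genes of other kinds. Fam111a, a protease found at replication forks, was at 56.3 against 24.3 CPM (ratio 2.32, 2.13 to 2.52) and Pclaf, a PCNA-binding protein, at 295 against 171 CPM. Their neighbours in the ranking, Fry (17.1 against 9.11 CPM) and the unnamed transcript Gm43041 (19.6 against 10.7 CPM), rest on 238 and 273 UMIs in the S-phase-entry cells. Among the other called genes, picked out after their values were seen, were the neurofilament-type genes Nefh (38.8 against 23.7 CPM) and Ina (38.4 against 23.6 CPM), Lin28b (18.4 against 10.6 CPM), the de novo methyltransferase Dnmt3a (45.1 against 29.0 CPM) and Mir17hg (15.2 against 9.29 CPM), host transcript of a microRNA cluster. Of 14 nucleolar genes, which serve ribosome assembly, 0 were called and 14 had positive log2 ratios under CPM scaling (Dkc1 turned under another), as had 4264 of all 7243 genes, with a median of 0.21 (0.11 to 0.47).

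**Figure D3:**
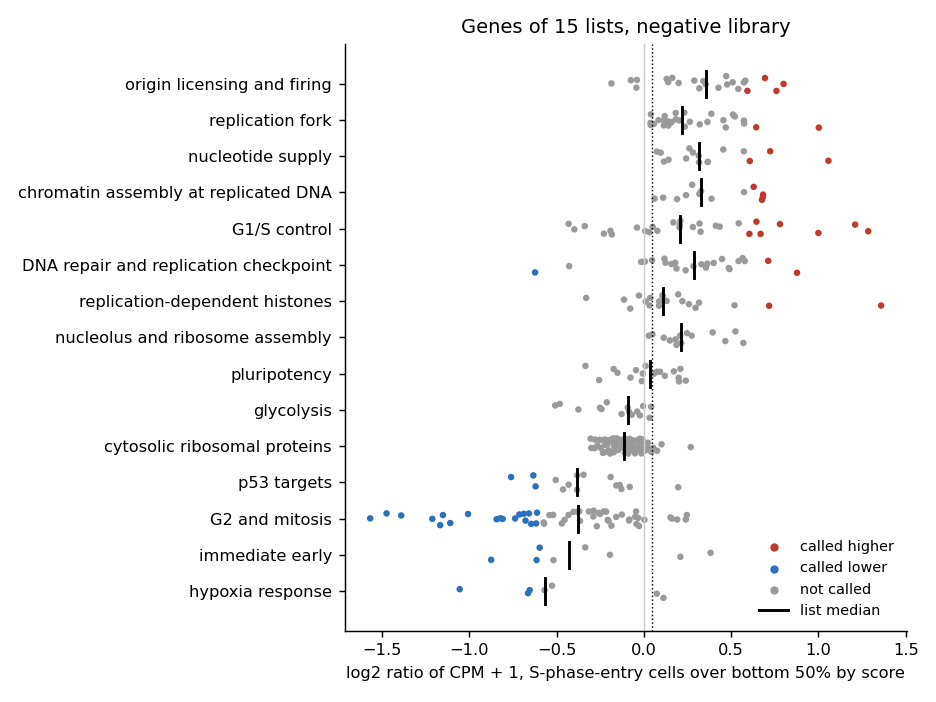
Each point is 1 gene past the filter on low values, placed by its log2 ratio of CPM + 1 between the S-phase-entry cells and the bottom 50% (horizontal axis) in the row of its list, with small vertical offsets to separate points. Black bars are list medians, and the dotted line is the median of all genes, 0.05. The medians of the replication lists lie to the right of the line and those of p53 targets, mitosis, immediate early and hypoxia genes to its left, with single genes on either side.

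Promoters of the score genes and of called genes were searched for the letters of an E2F-type site, known from promoters of many replication genes. The score genes were higher in these cells by the rule, so their shared direction bears on no motif. The motif was any of TTTCCCGC, TTTGGCGC, TTTCGCGC or TTTGCCGC on either strand within the 250 bases before a RefSeq gene start (GRCm38.p6, the build called mm10). Adjacent matches on the 2 strands can overlap. Of the 8 score genes 6 had an entry, and 4 of the 6 held a match. The stretches with their matches in capitals, read on the gene's strand, are shown for these 4, as genes that chose the cells, and for Cdc25a, which had the largest ratio of the called higher genes with a match. They lie at chr11:98907998-98908035 (Cdc6, plus strand, 138 bases before the start), chr8:75109341-75109382 (Mcm5, plus, 153), chr1:128359730-128359830 (Mcm6, minus, 110), chr17:56304113-56304150 (Uhrf1, plus, 185) and chr9:109875497-109875534 (Cdc25a, plus, 67).
Cdc6: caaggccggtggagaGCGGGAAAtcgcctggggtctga
Mcm5: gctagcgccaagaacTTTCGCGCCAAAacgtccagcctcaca
Mcm6: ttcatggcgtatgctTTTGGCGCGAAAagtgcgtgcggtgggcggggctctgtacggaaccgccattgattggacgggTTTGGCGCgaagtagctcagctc
Uhrf1: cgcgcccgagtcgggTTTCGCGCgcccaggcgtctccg
Cdc25a: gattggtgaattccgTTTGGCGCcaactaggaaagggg
The Mcm5 stretch and the first run of the Mcm6 stretch each hold a match on both strands that share bases, and Mcm6 holds 3 matches in all. Among the called higher genes with an entry, 7 of 38 (18.4%) held a match (Cdc25a, Zfp367, Dtl, Ppat, Casp8ap2, Ncapg2 and Ap4m1), among the called lower genes 5 of 74 (6.76%), and among all genes past the filter 265 of 5763 (4.60%). One or more matches were held by 2.157% of all 27025 genes with an entry, and by 1.86% of all 32851 promoters. Rrm2, Pclaf, Mcm10 and Fam111a had no match in this window, which says nothing about the factor.

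Of the lists examined, G2 and mitosis held the most genes called lower in the S-phase-entry cells. Of 56 genes of G2 and mitosis past the filter, 19 were called lower and 0 higher, and 50 had negative log2 ratios, with a median of -0.38 (-0.57 to -0.25). Aurka, the kinase of the spindle poles, was at 20.8 CPM (18.5 to 23.4) in the S-phase-entry cells, 32.4 CPM in the middle 40% and 63.8 CPM in the bottom 50% (ratio 0.327, 0.289 to 0.368). Ube2c, which marks cyclin B for breakdown at the end of mitosis, was at 178 against 495 CPM (ratio 0.359, 0.344 to 0.373). Nusap1, a spindle microtubule protein, was at 39.9 against 106 CPM, the midzone protein Prc1 at 92.7 against 210 CPM, and the kinetochore protein Cenpf at 176 against 391.7 CPM.

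In single cells Ube2c had a lowest value of 0, a median of 1.48 and a highest value of 9.61 UMIs per 10000 among the S-phase-entry cells, and 0, 3.44 and 21.1 in the bottom 50%. Cdk1, the mitotic kinase, had 0, 1.202 and 3.57 in the former and 0, 1.94 and 9.26 in the latter. The S-phase-entry cells thus lacked the high values found in part of the bottom 50%, while low values occurred in both. Top2a, which separates intertwined sister chromatids, had medians of 1.98 and 3.11. In all, 2 of 360 S-phase-entry cells (0.556%, exact binomial interval 0.0674 to 1.99) were in the 10% of eligible cells with the highest share of the mitosis list, and 307 of 1800 (17.1%, 15.3 to 18.9) in the bottom 50%.

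The mitosis genes differed among themselves. Of the markers of G2 and mitosis, Aurka and Cenpf were called, whereas Plk1 (49.1 against 73.7 CPM) and Ccnb1 (123 against 170 CPM) had log2 ratios of -0.57 and -0.45, Ccnb2 was at 89.7 against 92.4 CPM, and Cdc20, the activator of the anaphase-promoting complex, at 161 against 136 CPM (ratio 1.19, 1.13 to 1.24). The other 5 genes with positive log2 ratios were Dlgap5, Ccna2, Nuf2, Mad2l1 and Tacc3, none of them called. Ccna2, cyclin A2, which acts from S phase to G2, was at 116 against 102 CPM. Fzr1, which with the anaphase-promoting complex keeps cyclins low in G1, was in no list and was lower at 15.9 against 29.6 CPM.

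The S-phase-entry cells were also set against the 900 cells of the bottom 50% with the lower share of the mitosis list. This choice itself removes mitosis transcripts from the compared cells. Values of the list and of its members Aurka and Ube2c follow in part from it. Against these cells the median of the mitosis list turned to 0.15 (0.03 to 0.27), 73 genes were higher and 50 lower, and 43 of the 55 and 35 of the 90 were among these. E2f8 had 32.3 against 11.6 CPM there, Myc 29.6 against 12.5 CPM and Rrm2 331 against 161 CPM, while Aurka at 20.8 against 26.6 CPM, Ube2c at 178 against 230 CPM and Fzr1 at 15.9 against 19.99 CPM were no longer called.

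The cell cycle genes homology region (CHR), a motif known from promoters of mitotic genes, was searched the same way as TTTGAA or TTCGAA on either strand. Among mitosis-list genes with an entry, 17 of 48 (35.4%) held it, against 864 of 5763 genes past the filter (14.99%). Of all 27025 genes with an entry 19.55% held it. It was held by 5 of 18 licensing genes (27.8%) and by 16 of 85 genes of the replication, repair and chromatin lists (18.8%). Of the called lower genes 18 of 74 (24.3%) held it, and of the called higher genes 6 of 38 (15.8%). The stretches of Ube2c (chr2:164769885-164769920, plus strand, 29 bases before the start), Prc1 (chr7:80294431-80294466, plus, 30) and Cdk1 (chr10:69352913-69352998, minus, 71) are shown, with the match in capitals, as genes with values given above.
Ube2c: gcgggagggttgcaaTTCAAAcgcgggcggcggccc
Prc1: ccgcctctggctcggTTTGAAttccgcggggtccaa
Cdk1: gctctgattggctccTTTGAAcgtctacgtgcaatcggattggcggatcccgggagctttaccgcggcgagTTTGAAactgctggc
Cdk1 holds the letters 2 times and is also 1 of the 5 called lower genes with an E2F-type match. Aurka, Nusap1 and Cenpf had no CHR match in this window.

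Besides mitosis, the lower genes included a group known to respond to low oxygen. Of 7 genes of the hypoxia list past the filter (10 listed), 3 were called lower and 0 higher, with a median log2 ratio of -0.57 (-1.06 to 0.11), an interval that includes 0. Bnip3, a mitophagy receptor, was at 38.2 against 80.5 CPM (ratio 0.474, 0.433 to 0.518), P4ha1, a collagen hydroxylase, at 14.8 against 24.0 CPM and the growth inhibitor Ddit4 at 13.5 against 21.8 CPM. Ndufa4l2, a mitochondrial protein induced in hypoxia that was in no list, was at 10.6 against 32.0 CPM (ratio 0.332, 0.279 to 0.392). Vegfa and Pdk1 of the same list were level, at 15.6 against 14.8 and 68.7 against 63.5 CPM. The 15 glycolysis genes had a median log2 ratio of -0.09, with 0 called and Pgk1 lowest at 499 against 710 CPM. Against the 900 cells low in the mitosis list, Bnip3 (38.2 against 76.4 CPM), Ndufa4l2 (10.6 against 30.9 CPM) and Ddit4 (13.5 against 23.3 CPM) were still called lower.

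Lefty1, a secreted inhibitor of Nodal that Nodal signalling itself induces, was at 9.98 against 29.8 CPM (ratio 0.335, 0.280 to 0.397). It was concentrated in few cells, with a median of 0 UMIs in both groups, a highest value of 4.66 UMIs per 10000 in the S-phase-entry cells and 19.2 in the bottom 50%, and 25.2% of the bottom group's UMIs in 10 of 1800 cells. Of the S-phase-entry cells' UMIs, 61.2% came from 10 of 360 cells. Without the same share of highest cells in each group (10 and 50 cells, 2.78%) the levels were 3.99 and 12.3 CPM (ratio 0.323, 0.241 to 0.426). Against the 900 cells low in the mitosis list it was at 9.98 against 31.9 CPM.

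Of 15 targets of the tumour suppressor p53 past the filter, 3 were called lower (Btg2, Phlda3 and Plk2) and 14 had negative log2 ratios, with a median of -0.38 (-0.51 to -0.14). Btg2, an antiproliferative gene, was at 19.1 against 30.2 CPM, and Plk2 at 14.4 against 25.1 CPM. Of 8 immediate early genes, 3 were lower, Fos (5.82 against 11.5 CPM), Jun (6.97 against 11.1 CPM) and Egr1 (13.9 against 21.8 CPM), with a median of -0.43 (-0.88 to 0.38). They rest on few molecules, with 81, 97 and 193 UMIs in the S-phase-entry cells. The nuclear RNA Malat1, picked out after its value was seen, was at 4028 against 6432 CPM, the highest level of any called gene. Ribosomal protein genes took 24.4% of UMIs in the S-phase-entry cells and 26.8% in the bottom 50%, with 76 of 85 negative, a median log2 ratio of -0.12 (-0.15 to -0.09) and 0 called. Mitochondrial transcripts took 1.67% and 1.66%.

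Along the score in 10 equal classes, some lists changed at each step and others, such as the repair, chaperone and mitochondrial lists, did not. Origin licensing, replication fork, nucleotide supply, chromatin assembly and G1/S control genes were lower at each step from the S-phase-entry cells to the last class, licensing going from 0.257% of UMIs through 0.219% in the fifth class to 0.176%. Rrm2 went from 331 to 266 CPM between the first and the second class and to 132 CPM in the last. Geminin (Gmnn), the inhibitor of licensing, went from 317 to 227 CPM. The mitosis list, in contrast, was lowest in the second class, at 0.491%, and at 0.505% in the S-phase-entry cells, and it reached 0.795% in the last class. Aurka and Ube2c were higher at each step, Aurka going from 20.8 to 78.3 CPM, and Cdk1 went from 128 CPM to a maximum of 255 CPM in the ninth class, whereas Ccna2 stayed between 93.8 and 116 CPM.

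For the hypoxia genes the last step of the score was large. Bnip3 was at 38.2 CPM in the S-phase-entry cells, 77.3 CPM in the ninth class and 112 CPM in the last, and Ndufa4l2 at 10.6, 29.9 and 51.8 CPM. The hypoxia list took 0.0173%, 0.0230% and 0.0313% of UMIs. Ribosomal protein genes were higher at each step, from 24.4% to 27.6%. Nanog was highest in the S-phase-entry cells at 228 CPM and between 184 and 213 CPM in the other 9 classes. Since the classes come from 1 library and share its counting noise, these profiles are descriptions.

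**Figure D4:**
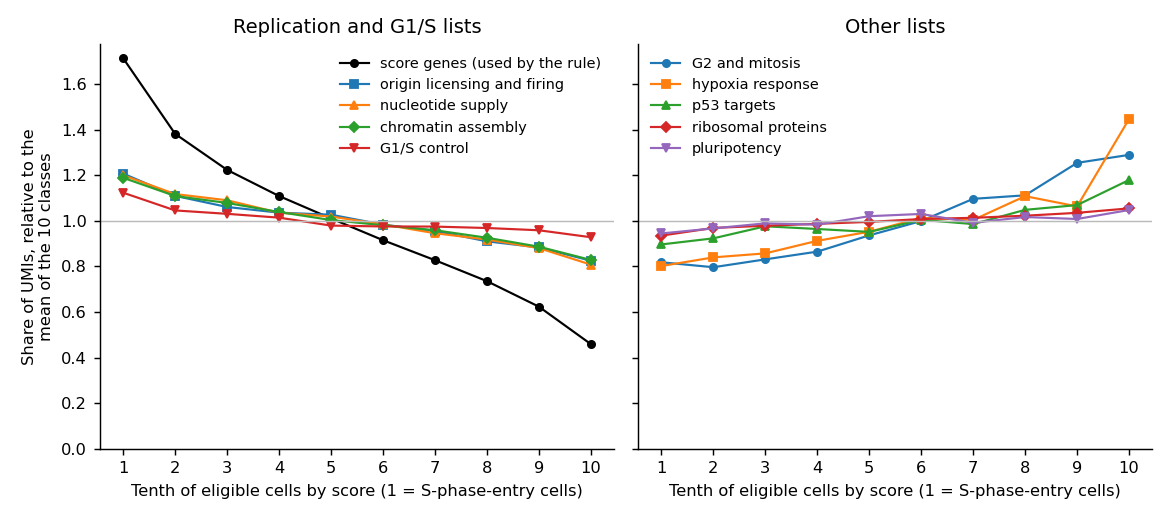
The horizontal axis is the class of eligible negative-library cells by score, 10 classes of equal size from the S-phase-entry cells (1) to the lowest scores (10), and the vertical axis is a list's share of summed UMIs divided by the mean of its 10 shares. The left panel shows the score genes, which the rule used, and 4 replication and G1/S lists, and the right panel 5 other lists. Replication lists decline from left to right, and the hypoxia list is highest in the last class.

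The same rule was then applied within the MERVL-GFP positive library, whose cells had no part in the choice. Of its 4603 cells 3895 were eligible, and its own top 10% (390 cells) were compared with its own bottom 50% (1948 cells). There 120 of 8053 genes were called higher (1.49%) and 442 lower (5.49%). Of the 55 genes higher in the negative library 54 passed the filter, 49 had the same sign and 26 were called higher, which is 47.3% of the 55 and 21.7% of the 120. Of the 90 lower genes 84 passed, 82 had the same sign and 43 were called lower, or 47.8% of the 90 and 9.73% of the 442. In both directions 0 genes were called the opposite way, and over all genes past the filter there 50.2% had a positive log2 ratio.

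Among the 12 genes with the largest ratios, some had close values in the 2 libraries and others did not. The log2 ratio of E2f8 was 1.248 in the positive and 1.285 in the negative library, that of Fam111a 1.30 and 1.18, of Cdc25a 1.12 and 0.9996, and of Rrm2 0.98 and 1.06. H2ac1, at 0.44 beside 1.36, was not called in the positive library, and Pclaf was at 1.248 beside 0.78. Among lower genes Aurka was at -0.89 in the positive beside -1.57 in the negative library and Ube2c at -0.90 beside -1.47, whereas Cenpe at -0.86 beside -0.81 and Bnip3 at -1.197 beside -1.06 lay further from 0 in the positive library. Genes of the higher set that had a negative log2 ratio in the positive library were Fry, Ptbp2, Cdkn1c, 2810001G20Rik and H2bc4, and those of the lower set with a positive one were Smtnl1 and Egr1. Cdkn1c was there at 34.4 against 44.1 CPM. The licensing list had a median log2 ratio of 0.39 (0.11 to 0.54) and the mitosis list of -0.33 (-0.42 to -0.27).

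The positive library differs in one respect that touches these values. Cells with at least 0.1% of UMIs from 2C-like genes made up 1575 of its eligible cells, 83 of the 390 in its top 10% and 966 of the 1948 in its bottom 50%. Leaving them out re-ranks the library and makes the groups smaller, 232 and 1160 cells, so the counts that follow do not isolate their part. Then 49 of 7851 genes were called higher (0.624%) and 212 lower (2.7%), 50 of the 54 and 85 of 85 had the same sign, and 23 and 56 were called in the same direction. Replication-dependent histones, at a median of -0.21 (-0.41 to 0.07) with those cells, were at 0.25 (0.10 to 0.37) without them. The difference between libraries was not tested, since each is 1 library.

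**Figure D5:**
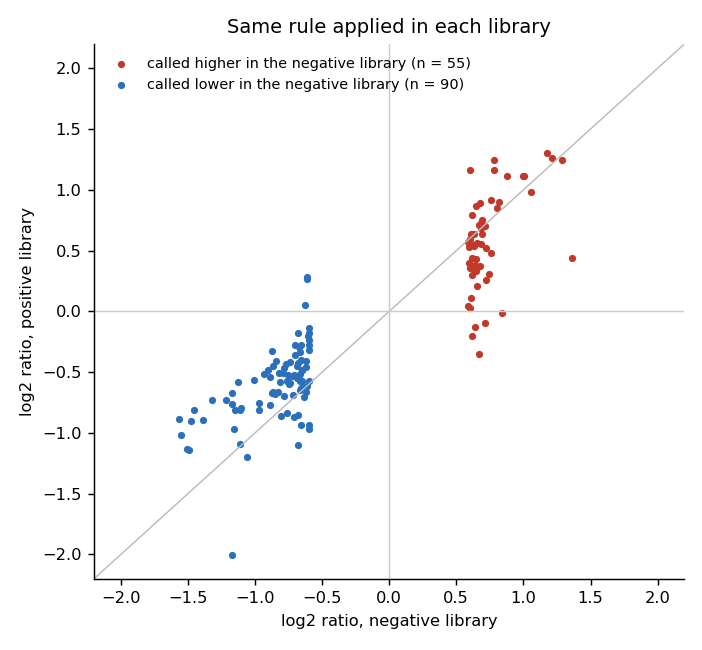
Each point is 1 of the 145 genes called in the negative library, with its log2 ratio of CPM + 1 between the top 10% and the bottom 50% by score in the negative library (horizontal axis) and in the positive library (vertical axis). The diagonal marks equal values, and the gap in the middle comes from the size rule. Points of the higher set lie mostly at upper right and those of the lower set at lower left, with values in the positive library from -2.01 to 1.30.

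Cells with a score as high as that of the S-phase-entry cells were less frequent in the positive library. At or above the negative library's threshold lay 165 of 3895 eligible positive-library cells, or 4.24% (exact binomial interval 3.63 to 4.92), beside the 10% that the rule fixes in the negative library. Among the cells high in 2C-like genes 27 of 1575 (1.71%, 1.13 to 2.48) reached it, and among the others 138 of 2320 (5.95%, 5.02 to 6.99). With all cells thinned to 10000 UMIs and a threshold of 14 score UMIs, the shares were 4.52% (3.89 to 5.22) in the positive and 10.1% in the negative library. The median depth was 32652.5 UMIs in the positive library's top 10% and 27836.5 in its bottom 50%, lower than in the negative library, and the part of depth beyond thinning was not tested.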

How the data were processed

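For 2 single-cell libraries the authors deposited counts of 55415 features in each cell. They are read here as UMIs because cells carry barcodes, although molecule counting is not stated. FastQC 0.11.2, Trim Galore 0.6.4, STAR 2.7.6a and mm10 are named in the submitters' processing notes. Cell calling is not given in the sources used here, and the labels' protocols describe a total RNA kit rather than single-cell capture. The libraries totalled 156406894 (negative) and 138364094 (positive) UMIs.

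UMIs were summed per group and scaled to CPM, and log2 ratios use CPM + 1. Intervals are exact Poisson, conditional binomial or Clopper-Pearson, and order-statistic for medians. Doublets were not removed; an alternative left out cells above 2 times the median UMIs. Named genes are the 8 score genes, up to 4 highest and 3 lowest members of each of 23 lists, and the 12 largest ratios in each direction that kept direction under every scaling; further members of the lists and the marker genes are given as values. The members and lists were chosen with earlier results of these data known. Alternatives changed scaling, filter, thresholds, thinning and the choice of cells. Steps were checked on simulated data. Promoters come from RefSeq; Ccne2 and Gins2 have no entry. Tools were scipy 1.17.1 with numpy 2.4.6 in Python 3.11.15, and edgeR 4.0.16 for TMM factors.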

Additional observations from a re-analysis of the deposited data

How the results depend on the processing

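No paired analysis was possible because there is 1 library per condition, and no replicate could be left out. Scaling changed 1 count beyond 1.5 times: outside ribosomal protein and mitochondrial genes 157 genes were lower. With at least 1 CPM 90 genes were higher and 303 lower, with no filter 91 and 323, and with a ratio of at least 2 6 and 20. For the top 5% of cells the counts were 92 and 150, and for the top 20% 28 higher. Against all other eligible cells 16 were higher and 38 lower, and the mitosis median was -0.23. Against the bottom cells low in the mitosis list 50 were lower, the mitosis median was 0.15, and 8 called genes turned positive: Cenpe (0.038), Tuba1c (0.0061), Kif18a (0.037), Cenpa (0.24), Lockd (0.26), Cks2 (0.0075), Arhgap11a (0.15) and Depdc1a (0.34). That choice of cells itself removes mitosis transcripts from the compared cells. Lower genes numbered 141 after thinning to 10000 UMIs, 141 without the endoderm limit and 148 within the interquartile range of UMIs. A score of Mcm5, Slbp, Gins2 and Uhrf1 gave 22 higher genes, and Gm49089 turned to 0.26. The histone median turned to -0.15 within the interquartile range, to -0.080 against cells low in the mitosis list and to -0.0088 with a score of Ccne1, Ccne2, Cdc6 and Mcm6. The positive library's share above the threshold was 5.95% without cells high in 2C-like genes. In the remaining alternatives the counts stayed within 1.5 times (12 of 19 for higher, 9 of 19 for lower genes), and the licensing median stayed within its interval in all 19. The causes were not tested. Alternatives chosen after seeing the data left out the highest cells of 4 genes. With the same share of each group left out, the calls of Cdkn1c (0.35) and Gm49089 (-0.23) ended. So did that of H2ac1, whose 9.105 against 2.61 CPM is under the 10 CPM of the filter. Leaving out 10 cells of each group, a larger share of the smaller group, gave 0.10 for Cdkn1c and -0.86 for Gm49089. There H2ac1 (9.105 against 3.77 CPM) and Gm49089 (4.87 against 9.65 CPM) were both under 10 CPM. Depth limits genes under 10 CPM.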
